A study of Mus musculus with 3 samples.

Results

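The chemokine receptors described here are 10 genes of the 32285 listed in the deposited matrices, chosen by name: Cxcr5, Cxcr4, Cxcr3, Cxcr2, Ccr7, Ccr6, Ccr2, Ccr9, Cx3cr1 and Ackr3. Spleen cells were measured by 10x Genomics 5′ single-cell RNA sequencing, which tags every captured transcript with a unique molecular identifier (UMI), after T cells had been depleted with CD3 microbeads. There were 3 libraries, 1 for each group, and each pooled 2 conditions of 3 mice whose cells carried hashtag antibodies. The control library held cells of sham-treated males and of females of strain C57Bl/6. The Ang II library held C57Bl/6 mice given angiotensin II, a pressor peptide, from a minipump for 2 weeks, with or without 2-HOBA, a scavenger of isolevuglandins. The B6.SLE123 library held mice of the lupus-prone strain B6.SLE123, which carries lupus susceptibility loci on a C57BL/6 background, given 2-HOBA or placebo for 6 weeks from 7 weeks of age. All mice were 12 to 14 weeks old per the labels. The 6 hashtags, C0301 to C0306, were not named for a condition, so the conditions within a library were not compared and 2-HOBA was not analysed here. Whether a hashtag marked a single mouse was not stated.

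Chemokine receptors are G protein-coupled receptors that let a leukocyte move along a gradient of a chemokine, and in the spleen they decide where a cell sits. CXCR5 draws B cells into follicles towards CXCL13, CCR7 draws lymphocytes and dendritic cells to the T cell zone towards CCL19 and CCL21, and CXCR4 holds cells near sources of CXCL12. CXCR2, CCR2 and CX3CR1 serve neutrophils, inflammatory monocytes and patrolling monocytes, CXCR3 answers the interferon-induced ligands CXCL9, CXCL10 and CXCL11, and ACKR3 takes up CXCL12 without classical G protein signalling.

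The control library held 18218 barcodes with 44146350 gene UMIs, the Ang II library 16062 with 59043555, and the B6.SLE123 library 20691 with 63516694. After filtering 15700, 14017 and 16702 cells were kept, in that order. Kept cells of the Ang II library were deeper, with a median of 2724 UMIs against 1759 and 1888. Cells were sorted into classes by marker genes, none of them a chemokine receptor. Of these 131 markers 98 were highest in their own class, which the sorting by the same genes favors, so it is no independent check. In the B-like class, which also holds the B subclasses, 0 of the 6 B markers were highest. Any 2 libraries shared 415 to 496 cell barcodes, at most 2.95% of the smaller one. Xist, the RNA of the inactive X chromosome, had a UMI in 49.2 to 51.7% of the cells of control hashtags C0304 to C0306 and in at most 0.39% of those of C0301 to C0303, in none of the Ang II hashtags, and in 46.6 to 54.9% of the cells of each B6.SLE123 hashtag. By Xist, the Ang II hashtags read as male and the B6.SLE123 hashtags as female, while control held both. Sex can therefore not be told apart from the condition in ratios to the whole control library. Values against the control hashtags with or without Xist are given where they change a direction or a call. The 10 receptors had 337 UMIs (Ackr3) to 15674 UMIs (Ccr7) over the kept cells.

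Levels are given in CPM, the UMIs of a gene per 1000000 UMIs of its class. With 1 library for each group there is no replicate and no test of a condition. All intervals are exact 95% intervals that cover counting error only. A ratio was called when it reached 2-fold with 50 or more UMIs over both libraries. Both comparisons used the same control library, so they are not independent of each other.

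**Figure D1:**
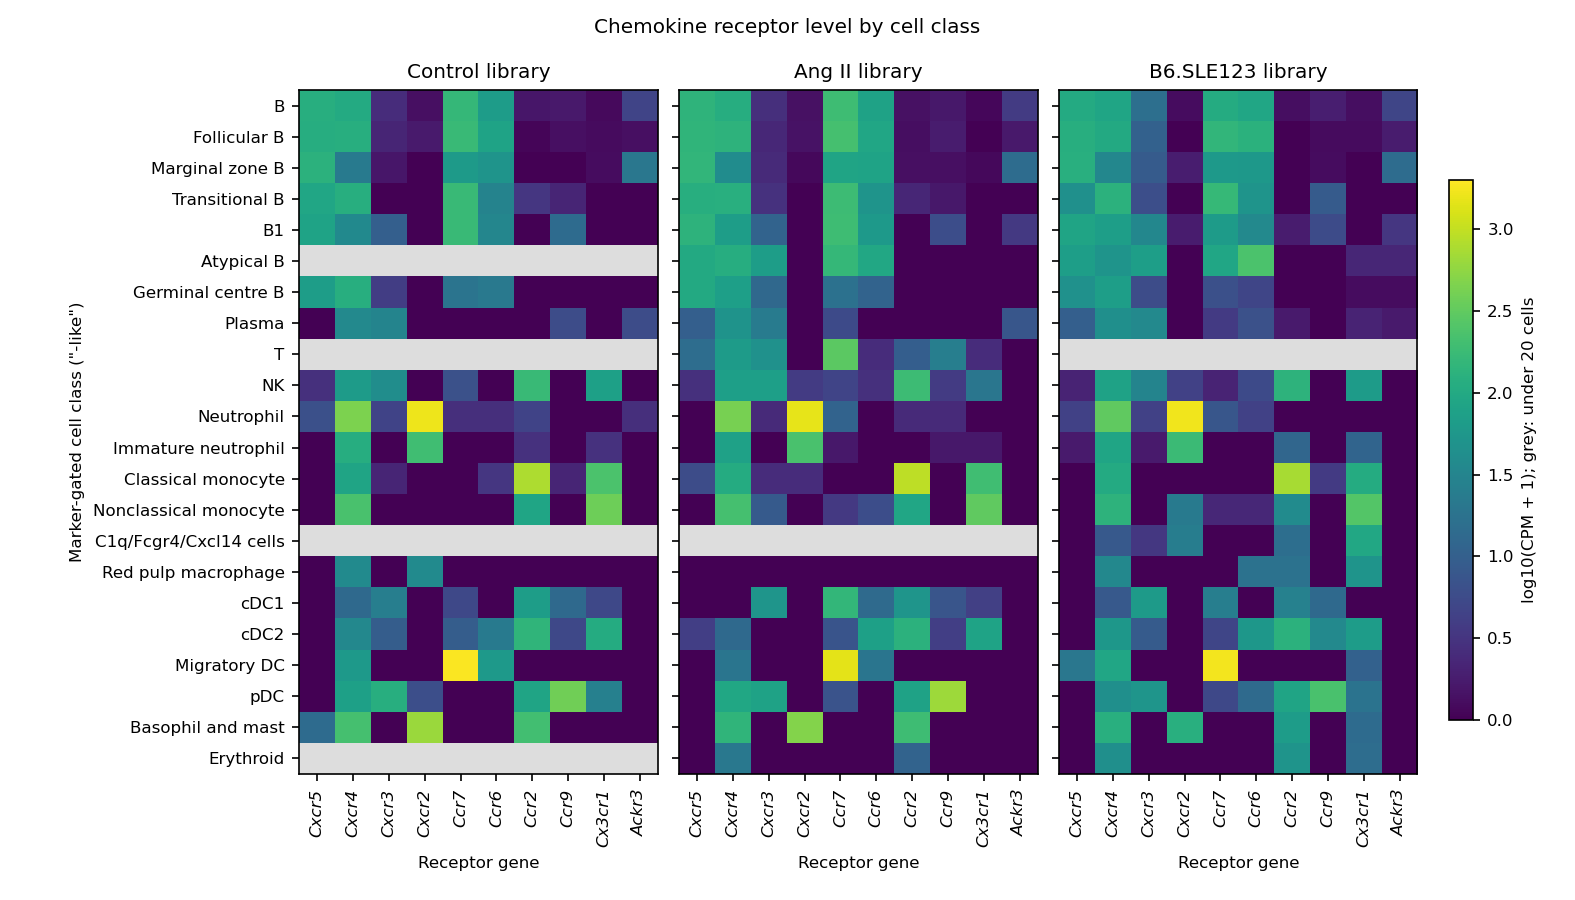
Level of each receptor (color, log10 of CPM + 1) in each marker-gated class, with a panel for each library. Classes under 20 cells in a library are left blank. The Cxcr2 level peaks in neutrophil-like cells, the Ccr2 level in classical monocyte-like cells and the Ccr7 level in migratory dendritic cell-like cells in all 3 libraries.

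Each receptor had 1 class chosen as its main class from what is known of the gene, and these are described first for B cells. This was not always the class of the highest level: Cxcr4, Cxcr3 and Ccr7 were assigned to B-like cells but were higher elsewhere. Cxcr5, the follicle homing receptor, was nearly confined to B-like cells, which held 95.2% of its UMIs in control cells, 97.0% with Ang II and 92.5% in the lupus-prone strain. In control cells its level was 132 CPM (120 to 144) in marginal zone B-like and 114 CPM (107 to 121) in follicular B-like cells. It was lower in germinal centre B-like cells, at 67.9 CPM (43.0 to 102). Plasma-like cells had 8.93 CPM with Ang II and 8.90 CPM in B6.SLE123, and the 22 control plasma-like cells had no Cxcr5 UMI, where 3 UMIs would be 14.7 CPM. Cxcr5 was detected in 20.5% of control B-like cells (10.4% after thinning each cell to 1000 UMIs) and in 0.595% of control neutrophil-like cells, which should lack it, at median depths of 1790 and 1069 UMIs.

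Ccr7, the T zone homing receptor, was highest in migratory dendritic cell-like cells, at 1904 CPM (1544 to 2322) in control, 1452 CPM (1149 to 1809) in Ang II and 1741 CPM (1495 to 2015) in B6.SLE123. The intervals overlapped. The 288 T-like cells left in the Ang II library, against 10 in control, had Ccr7 at 291 CPM (262 to 322). Of the 288, 276 carried hashtag C0303, so this level is almost wholly that of 1 hashtag. Among B-like cells Ccr7 was 172 CPM in control follicular cells, 62.6 CPM in marginal zone cells and 17.7 CPM in germinal centre cells, so follicular cells had the highest level of these 3 subclasses in each library. In the B6.SLE123 library, where germinal centre B-like cells numbered 604, their Ccr7 level was 5.39 CPM. Those with cycling markers had 1.23 CPM of Ccr7 and those without had 16.5 CPM, from 3 and 15 UMIs, a log2 difference of -3.74 (-6.17 to -1.92). Of these UMIs 11 came from hashtag C0303, in 5.62% of its 89 germinal centre cells, and C0302, C0304 and C0306 had 0. The difference thus rests on few cells, largely of 1 hashtag. The Cxcr4 level, by which dark zone cells are known, was 67.5 CPM with and 78.0 CPM without cycling markers, a log2 difference of -0.21 (-0.62 to 0.21).

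Cxcr4 was found in many classes, with 76.8% of its control UMIs in B-like cells. Its level was 450 CPM (396 to 509) in control neutrophil-like cells, 226 CPM (188 to 269) in nonclassical monocyte-like cells and 115 CPM (108 to 123) in follicular B-like cells. Marginal zone B-like cells were low, at 21.7 CPM in control, 39.3 CPM in Ang II and 32.7 CPM in B6.SLE123, and in every library the interval for these cells lay below that for follicular cells. Ccr6, the receptor for CCL20, was found mainly in B-like cells, with 94.1% of its control UMIs there. Its level in the control library was 81.8 CPM in follicular, 50.5 CPM in marginal zone and 20.7 CPM in germinal centre B-like cells. In the B6.SLE123 library Ccr6 ran from 3.89 CPM in germinal centre cells to 228 CPM (196 to 264) in the 197 atypical B-like cells, which are defined by Tbx21, Itgax, Itgam, Fcrl5 and Zeb2. Of these 5 markers only 1 was highest in the atypical cells among all classes, and 2 were first or second there.

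Ackr3, the scavenging receptor, was far higher in marginal zone than in follicular B-like cells. Marginal zone B-like cells held 68 of its 108 UMIs in control, 75 of 103 in Ang II and 47 of 126 in B6.SLE123. Their level was 19.2 CPM (14.9 to 24.3) in control, 13.8 CPM (10.8 to 17.3) in Ang II and 13.5 CPM (9.91 to 17.9) in B6.SLE123, against 0.363, 0.667 and 0.776 CPM in follicular B-like cells. The gene with the second closest pattern to Ackr3 over 18 classes was Ackr2, another atypical receptor, with a Pearson correlation of 0.921 on log2(CPM + 1), after Ppl at 0.951. The like search ran over 11222 genes and is a description, since classes share libraries and depth.

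Among myeloid cells, Cxcr2 was 1633 CPM (1529 to 1742) in control neutrophil-like cells, 1518 CPM (1428 to 1612) in Ang II and 1712 CPM (1568 to 1866) in B6.SLE123. It was lower in immature neutrophil-like cells, at 194, 226 and 174 CPM. Cxcr2 was detected in 80.4% of control neutrophil-like cells (76.8% with thinned cells) and in 0.0787% of the deeper B-like cells. Grina had the pattern most like it, at a correlation of 0.954, followed by Hdc, the enzyme that makes histamine. Ccr2, which mobilises inflammatory monocytes, was 780 CPM (722 to 842) in control classical monocyte-like cells, 930 CPM (855 to 1009) in Ang II and 734 CPM (674 to 797) in B6.SLE123. NK-like cells followed at 170, 182 and 137 CPM. Nonclassical monocyte-like cells had Ccr2 at 86.1, 89.9 and 38.4 CPM.

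Cx3cr1, the fractalkine receptor of patrolling monocytes, was spread over both monocyte classes, at 371 CPM (322 to 425) in nonclassical and 229 CPM (198 to 263) in classical monocyte-like cells of the control library. Ccr9, a gut homing receptor that plasmacytoid dendritic cells (pDC) also carry, was at 386 CPM (74 UMIs) in 46 control pDC-like cells, 650 CPM (533 to 785) in 25 Ang II cells and 225 CPM (168 to 294) in 61 B6.SLE123 cells. The last 2 intervals did not overlap. The gene most like Ccr9 was Siglech, at 0.919, which is itself a marker of the pDC gate. Ccr9 and Cx3cr1 overlap other genes in the annotation (6 and 9 genes), and Cxcr5 overlaps Bcl9l on the other strand, so reads there may be shared.

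Cxcr3 was found in several classes. In the control library B-like cells held 31.9% of its UMIs, and the levels were 115 CPM (72.0 to 174) in pDC-like cells, 39.9 CPM (28.9 to 53.7) in NK-like cells, 29.4 CPM (10.8 to 64.1) in plasma-like cells and 1.64 CPM (1.19 to 2.20) in B-like cells. A Cxcr3 UMI was present in 0.299% of control and 0.435% of Ang II B-like cells. Neutrophil-like cells, which should lack the gene, showed 0.397% of 504 and 0.253% of 395 cells. Median depths were 1790 and 2754 UMIs in B-like and 1069 and 1645 UMIs in neutrophil-like cells. The neutrophil-like shares rest on 1 UMI in each of control hashtags C0305 and C0306 and Ang II hashtag C0306. Neither B-like share, from deeper cells, can therefore be set above or below this background. Of the control B-like UMIs, 5 were in 13 atypical cells. In the B6.SLE123 library the B-like share was 2.90% against 0.302% in neutrophil-like cells, at median depths of 1959 and 791 UMIs, and B-like cells held 66.5% of the Cxcr3 UMIs. The next 3 classes did not show this difference. NK-like cells had 30.2 CPM (19.9 to 44.0) in B6.SLE123 and 71.3 CPM (56.3 to 89.2) with Ang II, with hashtag medians of 34.2 and 70.3 CPM beside 34.5 CPM in control, and the hashtags of all 3 libraries overlapped. pDC-like cells had 50.9 CPM (26.3 to 88.9) in B6.SLE123 and 78.3 CPM (41.7 to 134) with Ang II. Plasma-like cells had 34.5 CPM (27.8 to 42.3) in B6.SLE123, within the control interval.

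The comparison of B6.SLE123 with control asked which receptors differ in the lupus-prone strain. Of the 10 receptors in their main class, 1 was called, Cxcr3. That call depends on the class chosen, since Cxcr3 was not called in NK-like or pDC-like cells, where its control level was higher. The receptors and lists were also chosen with earlier results of these data known. Over all genes, 6.96% were called in B-like cells, 2.91% in marginal zone B-like, 4.26% in neutrophil-like, 4.56% in classical monocyte-like, 4% in nonclassical monocyte-like and 5.1% in pDC-like cells. The median log2 ratio of the 10 receptors, each in its own main class, was -0.22. The medians over all genes tested in these classes ran from -0.05 in B-like cells (11292 genes) to 0.05 in pDC-like cells. With Ang II, 0 of the 10 were called, and the background was 1.52%, 1.36%, 1.67%, 1.74%, 2.02% and 2.61% in the same classes. The median of the 10 was 0.20. The medians over all genes ran from -0.04 in nonclassical monocyte-like to 0.07 in marginal zone B-like cells, with 0.06 over the 11286 genes of B-like cells. The counts of receptors called are too small to set apart from these shares.

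**Figure D2:**
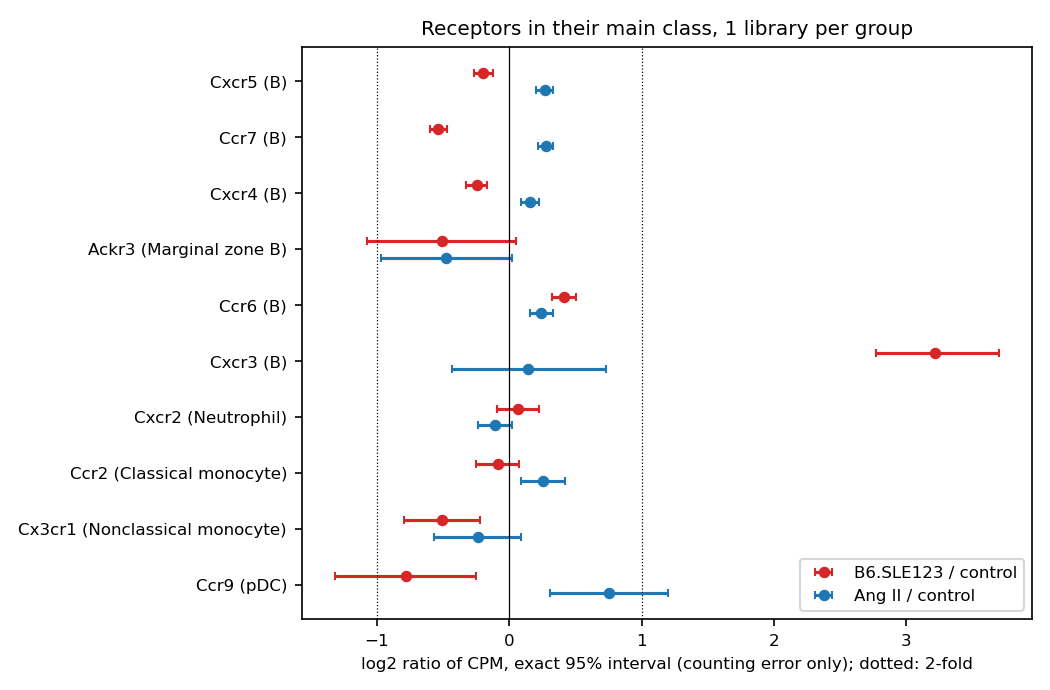
Log2 ratio of each receptor in its main class, B6.SLE123 against control and Ang II against control, with exact 95% intervals of counting error. Only Cxcr3 in B-like cells of the B6.SLE123 library passes 2-fold.

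Cxcr3 in B-like cells was 15.2 CPM (453 UMIs) in the B6.SLE123 library against 1.64 CPM (44 UMIs) in control, 9.31-fold higher, a log2 ratio of 3.22 (2.77 to 3.70). In the Ang II library it was 1.81 CPM (64 UMIs), a log2 ratio of 0.14 (-0.43 to 0.73), which was -0.32 (-0.96 to 0.36) against control hashtags C0301 to C0303 alone, which lacked Xist as Ang II did. With cells thinned to 1000 UMIs each, a Cxcr3 UMI remained in 0.109% of B-like cells in control, 0.112% with Ang II and 1.17% in B6.SLE123.

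By hashtag, the Cxcr3 level in B6.SLE123 B-like cells was 6.07, 10.8, 43.7, 13.7, 9.42 and 6.36 CPM in C0301 to C0306. In control it was 0.373, 4.72, 1.38, 0.697, 0.821 and 1.68 CPM, and in Ang II it was 0.696, 2.91, 2.68, 2.08, 2.23 and 0.662 CPM. The B6.SLE123 hashtags did not overlap with those of either other library, but C0303 stood far above the other 5, with 222 of the 453 UMIs. The share of all genes without such overlap was not counted. Without C0303 the log2 ratio to control was 2.52 (2.05 to 3.02), and against control hashtags C0304 to C0306 alone, whose cells had Xist as those of B6.SLE123 did, it was 3.86 (3.10 to 4.74).

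**Figure D3:**
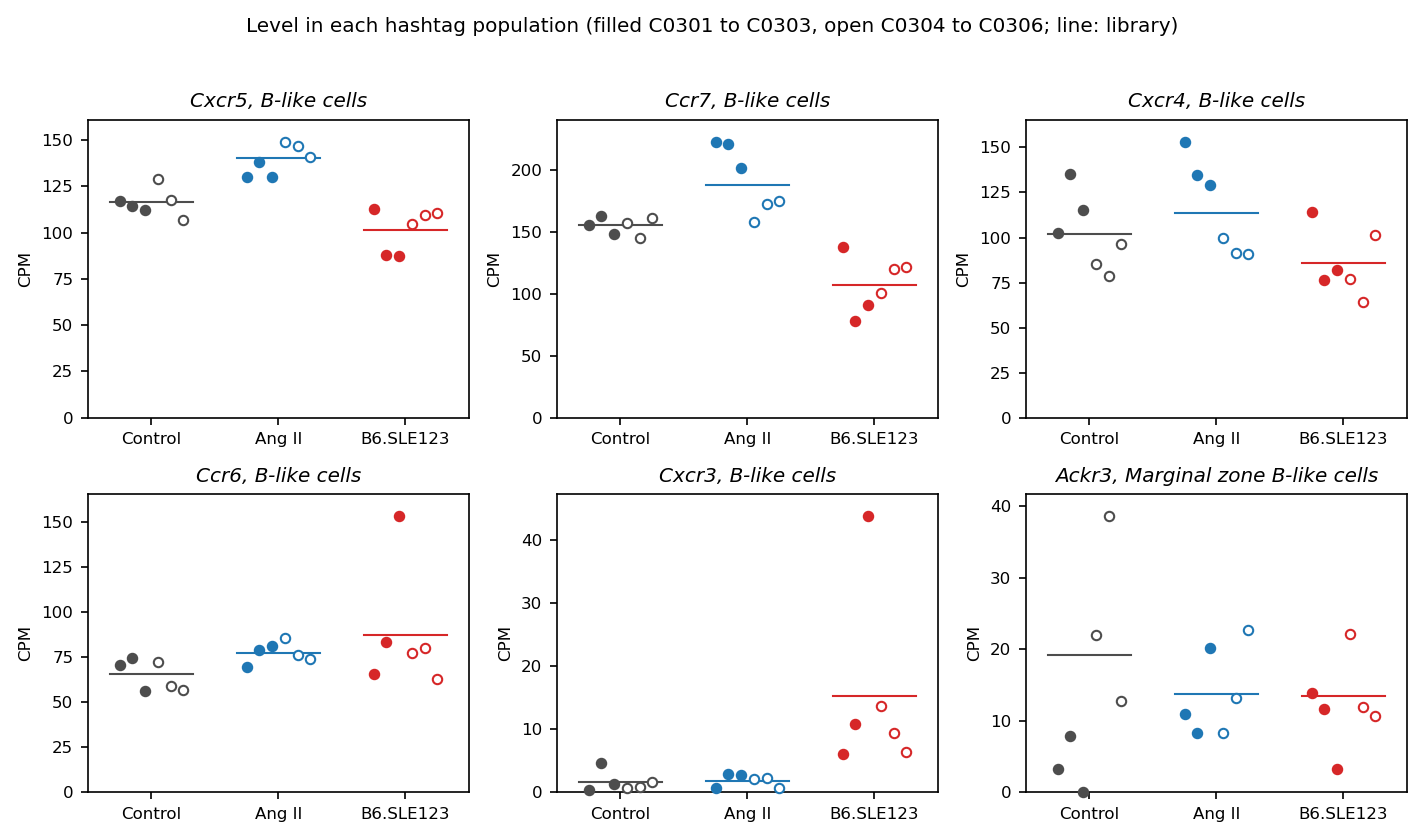
Level (CPM) of receptors in their main class for each hashtag of each library. Filled points are C0301 to C0303 and open points C0304 to C0306. B6.SLE123 hashtag C0303 sits at 43.7 CPM for Cxcr3 and 153 CPM for Ccr6, apart from the other 5.

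The excess of Cxcr3 was not held by a single subclass. Of the 453 UMIs, 12.4% were in atypical, 9.27% in B1-like and 60.3% in B-like cells that passed no subclass gate. Levels in the B6.SLE123 library were 69.1 CPM (52.2 to 89.7) in atypical, 32.9 CPM (23.7 to 44.4) in B1-like, 9.58 CPM (6.74 to 13.2) in follicular, 7.75 CPM (5.11 to 11.3) in marginal zone and 4.79 CPM (2.74 to 7.78) in germinal centre B-like cells. The atypical cells of the Ang II library, 30 in number, were as high at 67.2 CPM (32.2 to 123). With atypical, B1 and germinal centre B-like cells left out, the log2 ratio of B6.SLE123 to control was 3.35 (2.85 to 3.89), and in follicular B-like cells alone it was 2.98 (1.95 to 4.16), from 37 and 10 UMIs, under the limit of 50. In follicular cells 24 of those 37 UMIs came from C0303, and the other hashtags ran from 0 to 10.9 CPM.

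**Figure D4:**
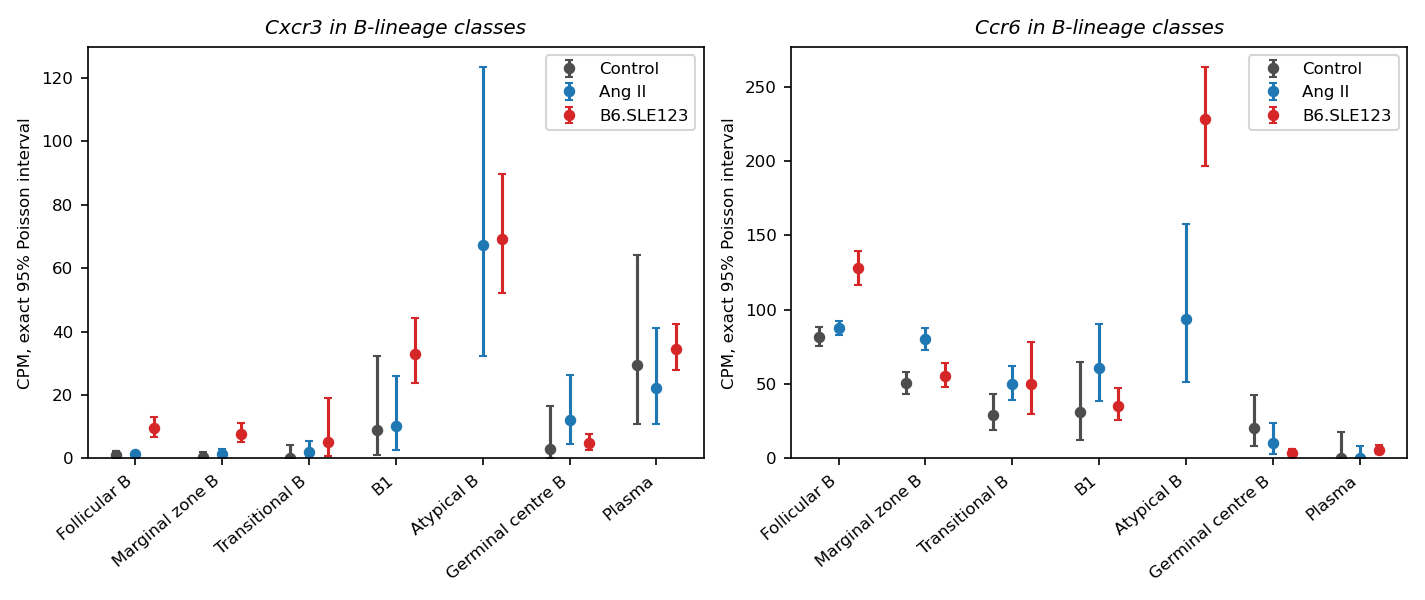
Cxcr3 and Ccr6 level (CPM) by B subclass in the 3 libraries, with exact 95% Poisson intervals. In the B6.SLE123 library both are highest in atypical B-like cells, at 69.1 and 228 CPM.

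Cxcr3 lies on chromosome X, chrX:101731535-101734269 on the minus strand of GRCm38, and Ccr6 at chr17:8236043-8257141 on the plus strand. Their promoters are shown because these are the receptors whose levels stood apart in the same B6.SLE123 hashtag. RefSeq windows of 250 bases upstream, matched for 8 of the 10 receptors (9 windows), were searched on both strands for the T-box core TCACAC, the TATA box TATAAA and the interferon regulatory factor core AANNGAAA, found in 12.3%, 12.4% and 21.3% of 32851 such windows. The windows are printed as far as they lie upstream of the annotated gene start, chrX:101734270-101734397 (minus strand) and chr17:8235793-8236042 (plus strand), with capitals for the T-box core in Cxcr3, 234 to 229 bases before the RefSeq start, and for the interferon regulatory factor core in Ccr6, 79 to 72 bases before it.
Cxcr3: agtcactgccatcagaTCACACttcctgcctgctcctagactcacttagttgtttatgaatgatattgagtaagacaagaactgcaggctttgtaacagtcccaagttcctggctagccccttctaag
Ccr6: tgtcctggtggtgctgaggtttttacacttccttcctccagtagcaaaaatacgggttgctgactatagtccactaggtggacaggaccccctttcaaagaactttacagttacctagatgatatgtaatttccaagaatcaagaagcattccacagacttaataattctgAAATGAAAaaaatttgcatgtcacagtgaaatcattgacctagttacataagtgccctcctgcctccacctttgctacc
Such short matches occur in many promoters and describe only the letters in these windows.

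B-like cells of the B6.SLE123 library with a Cxcr3 UMI were compared with those without, as a description of the cells. They numbered 352, of which 170 were of hashtag C0303, and they were deeper, at a median of 3185 UMIs against 1933. Atypical cells made up 11.1% of them and 1.34% of the others. Of the 5 atypical markers 4 were 2-fold or more higher, where 8.63% of 10562 genes differed by that much in either direction. Itgax, which encodes CD11c, was higher at 27.5 CPM, a log2 difference of 3.46 and Tbx21, which encodes T-bet, at 53.5 against 12.2 CPM. Of 7 germinal centre markers compared 5 were 2-fold or more lower, among them Mef2b, a transcription factor of germinal centre B cells, at 21.6 against 69.5 CPM. Fas, of the same list, went the other way, at 37.2 against 21.3 CPM. Germinal centre B-like cells made up 4.26% of the cells with a Cxcr3 UMI and 4.99% of the others. For B1-like cells it was 7.10% and 2.59%, and of 5 B1 markers 2 were 2-fold or more higher and 1 lower. Within C0303 alone the log2 difference was 0.86 (0.27 to 1.41) for Tbx21 and 2.04 (1.12 to 2.92) for Itgax. Without C0303 it was 2.56 (2.02 to 3.06) and 3.99 (3.11 to 4.81).

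**Figure D5:**
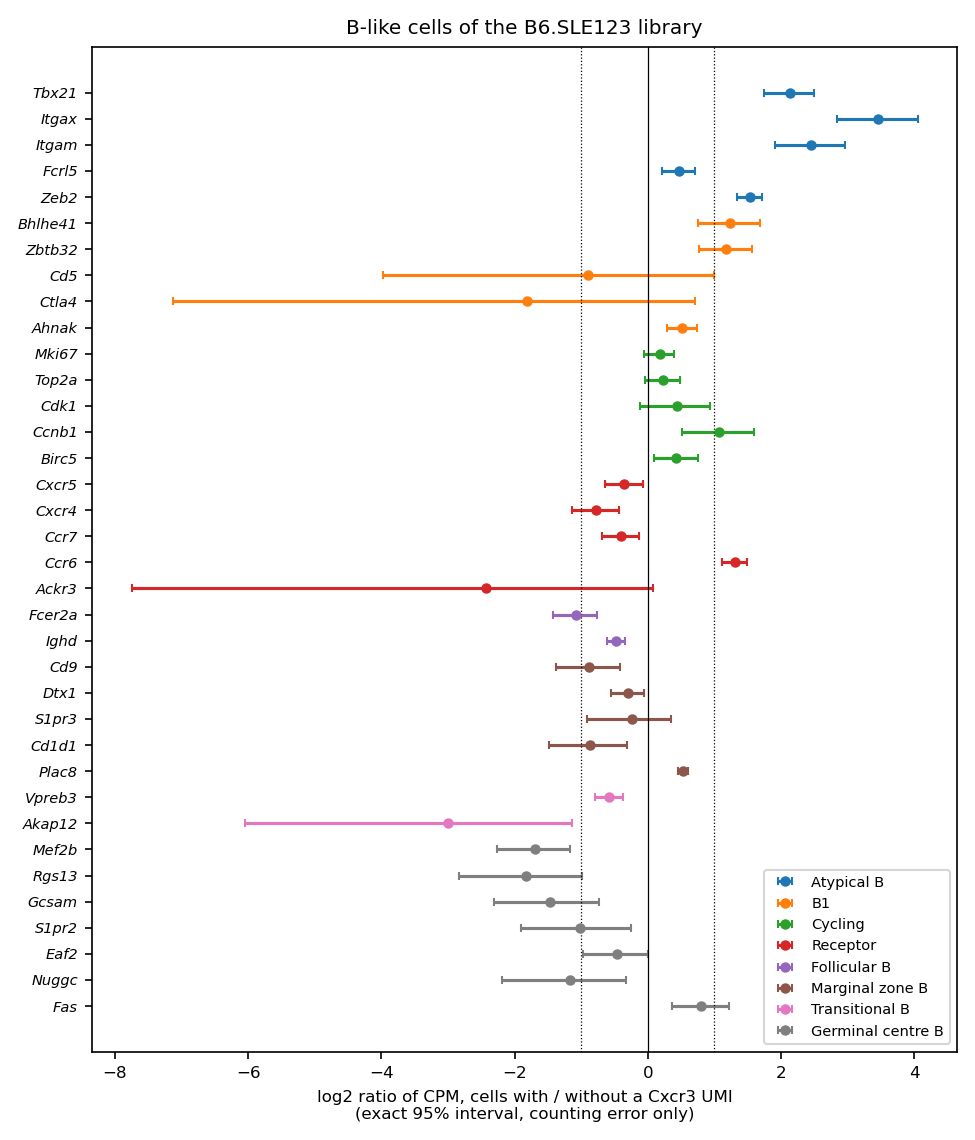
Log2 difference in level between B6.SLE123 B-like cells with and without a Cxcr3 UMI, for marker genes and other receptors, with exact 95% intervals. Itgax (3.46) and Tbx21 (2.13) are on the high side and Mef2b (-1.69) on the low side.

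Of 5 other receptors with enough UMIs, Ccr6 was higher in the Cxcr3-positive cells, at 202 against 82.0 CPM, 2.46-fold. The log2 difference was 0.75 (0.48 to 1.01) within C0303 and 1.29 (1.01 to 1.55) without it. The log2 difference of Cxcr4 was -0.77 (-1.14 to -0.43), of Ccr7 -0.40 (-0.69 to -0.13) and of Cxcr5 -0.35 (-0.64 to -0.08), all short of 2-fold. Ackr3 was past 2-fold on the low side, with a log2 difference of -2.43 (-7.75 to 0.07) that rests on 1 UMI in the Cxcr3-positive cells against 114 in the others.

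Ccr6 in all B-like cells was 87.5 CPM in B6.SLE123 against 65.7 CPM in control, a log2 ratio of 0.41 (0.33 to 0.50), and 77.5 CPM in Ang II, a log2 ratio of 0.24 (0.15 to 0.33). By hashtag the B6.SLE123 levels were 65.6, 83.6, 153, 77.6, 80.2 and 62.9 CPM, while control ran from 56.3 to 74.3 CPM and Ang II from 69.5 to 85.7 CPM. The ranges overlapped, and the high value was again C0303. Without it the ratio fell to 0.17 (0.08 to 0.27). In that hashtag Ccr6 was at 196 CPM in follicular, 142 CPM in marginal zone and 261 CPM in atypical B-like cells. C0303 also held 6.26% atypical cells among its B-like cells, where the other hashtags held 0.351 to 2.11%. Its B-like cells had the highest summed level of 10 stress and immediate early genes of its library, 708 CPM against 550 to 633 CPM in the others. Their part in the result was not tested.

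Ccr7 in B-like cells was 107 CPM in B6.SLE123 against 155 CPM in control, a log2 ratio of -0.54 (-0.60 to -0.47). All 6 B6.SLE123 hashtags, from 78.3 to 138 CPM, lay below all 6 control hashtags, from 145 to 162 CPM. How many of all genes had hashtags apart in this way was not counted. The difference was smaller in narrower sets of cells. With atypical, B1 and germinal centre B-like cells left out the ratio was -0.34 (-0.41 to -0.27), and in follicular B-like cells it was -0.21 (-0.36 to -0.07), where the hashtags overlapped, at 88.0 to 207 CPM against 164 to 183 CPM. In the Ang II library Ccr7 was 188 CPM, a log2 ratio of 0.27 (0.22 to 0.33), with hashtags from 158 to 223 CPM that overlapped with control. C0301 to C0303 of that library had 202 to 223 CPM and C0304 to C0306 had 158 to 175 CPM.

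Cxcr5 in B-like cells was 102 CPM in B6.SLE123 against 117 CPM in control, a log2 ratio of -0.20 (-0.27 to -0.12), with hashtags of 87.4 to 113 and 107 to 129 CPM that overlapped. In follicular B-like cells the ratio was 0.02 (-0.15 to 0.18). In Ang II Cxcr5 was 140 CPM, a log2 ratio of 0.27 (0.20 to 0.33). All 6 Ang II hashtags, from 130 to 149 CPM, lay above those of control, but narrowly, at 130.3 against 129.0 CPM. The share of all genes whose hashtags lay apart in this way was not counted. Cxcr4 in B-like cells was 86.0 CPM in B6.SLE123, 114 CPM in Ang II and 102 CPM in control, log2 ratios of -0.25 (-0.33 to -0.17) and 0.16 (0.09 to 0.23). The hashtags overlapped in both comparisons, and the control hashtags ran from 78.8 to 135 CPM. Control hashtag C0302, at the top, also had the highest stress list level in control B-like cells, at 593 CPM against 327 to 387 CPM in the others. In the Ang II library, C0301 to C0303 had 129 to 153 CPM of Cxcr4 and stress levels of 632 to 821 CPM, and C0304 to C0306 had 91.0 to 99.5 CPM and stress levels of 408 to 501 CPM. In the B6.SLE123 library the highest Cxcr4 level was in C0301, at 114 CPM, with a stress level of 575 CPM. Hashtag C0303 of that library had the highest stress level, 708 CPM, with 81.8 CPM of Cxcr4. The part of stress in the Cxcr4 level was not tested. Against the control hashtags C0304 to C0306 alone the B6.SLE123 ratio of Cxcr4 was -0.01 (-0.11 to 0.09). Against C0301 to C0303 alone the Ang II ratio was -0.05 (-0.14 to 0.03), so the higher level of Cxcr4 with Ang II was not seen against the control hashtags that also lacked Xist.

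Ackr3 in marginal zone B-like cells had log2 ratios of -0.51 (-1.07 to 0.05) in B6.SLE123 and -0.48 (-0.97 to 0.02) in Ang II. The control library itself was split, with 3.21, 7.82 and 0 CPM in C0301 to C0303 and 21.9, 38.6 and 12.8 CPM in C0304 to C0306, the hashtags with Xist UMIs. The first 3 hashtags had 5 Ackr3 UMIs in 328 cells and the last 3 had 63 in 604 cells. Against the hashtags with Xist alone the level was 0.499 times as high in B6.SLE123 and 0.509 times as high with Ang II. Against the others it was 3.28 and 3.34 times as high, log2 ratios of 1.71 (0.39 to 3.40) and 1.74 (0.45 to 3.41). No direction can therefore be given for Ackr3. Ang II hashtags, none of which had Xist UMIs, ran from 8.27 to 22.7 CPM, above control C0301 to C0303 and overlapping with C0304 to C0306.

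The main receptors of myeloid cells stayed short of 2-fold in both comparisons. Cxcr2 in neutrophil-like cells had log2 ratios of 0.07 (-0.09 to 0.23) in B6.SLE123 and -0.11 (-0.23 to 0.02) with Ang II treatment, both with intervals that include 0. The control hashtags ran from 1467 to 1951 CPM, the Ang II hashtags from 1279 to 1679 CPM and the 3 B6.SLE123 hashtags with enough cells from 1347 to 1960 CPM. Ccr2 in classical monocyte-like cells had ratios of -0.09 (-0.25 to 0.08) and 0.25 (0.09 to 0.42). Cx3cr1 in nonclassical monocyte-like cells was 261 CPM in B6.SLE123, 315 CPM in Ang II and 371 CPM in control, with log2 ratios of -0.51 (-0.80 to -0.22) and -0.24 (-0.57 to 0.09). Ccr9 in pDC-like cells had ratios of -0.78 (-1.32 to -0.25) in B6.SLE123 and 0.75 (0.31 to 1.20) in Ang II, from 53 and 108 UMIs against 74 in control.

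Outside the main classes, ratios past 2-fold with 50 UMIs were found for Ccr7, Cxcr2 and Ccr2 in 1 class each, for Cx3cr1 in 2 classes, and for Cxcr3 and Cx3cr1 over all kept cells. In all kept cells the share of genes called was 8.67% in B6.SLE123 and 3.1% in Ang II. Cxcr3 over all kept cells was 15.8 CPM in B6.SLE123 against 4.08 CPM in control, a log2 ratio of 1.95 (1.69 to 2.23), which was 1.47 without B6.SLE123 C0303. The share of genes called was 7.05% and 4.69% in B1-like, 1.58% and 1.43% in NK-like and 14.9% and 4.63% in basophil-like cells. In B1-like cells of B6.SLE123, Ccr7 was 63.4 CPM against 170 CPM, a log2 ratio of -1.43, but with classes from clusters it was -0.35, and against control hashtags C0301 to C0303 alone it was -0.46. In basophil-like cells Cxcr2 was 118 CPM against 628 CPM, a ratio of -2.41 from 9 and 47 UMIs in 28 and 38 cells, and without control C0302, C0305 or C0306 fewer than 50 UMIs were left. In nonclassical monocyte-like cells of B6.SLE123 Ccr2 was 38.4 against 86.1 CPM, a ratio of -1.16, which was -0.79 without control C0305 and -0.81 without B6.SLE123 C0303, and -0.81 against control hashtags C0301 to C0303 alone. In classical monocyte-like cells Cx3cr1 was 106 against 229 CPM, a ratio of -1.11, which was -0.88 without B6.SLE123 C0303, -0.99 without control C0306 or B6.SLE123 C0302, -0.99 against control C0301 to C0303 alone, and -0.48 with thinned cells.

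In NK-like cells of the Ang II library, Cx3cr1, which marks mature circulating NK cells, was 18.5 CPM against 75.1 CPM, a log2 ratio of -2.02. Its level in 1 control hashtag, C0305, was 185 CPM and in the other 5 it was 17.8 to 61.2 CPM, and the Ang II hashtags, with a median of 14.8 CPM, overlapped with control. Without C0305 the ratio was -1.09, and against control hashtags C0301 to C0303 alone it was -0.82. Over all kept cells the Cx3cr1 ratio was -1.18 in Ang II (-0.89 without control C0305 and -0.93 against C0301 to C0303 alone). Nonclassical monocyte-like cells, with 207 of its 622 control UMIs, were 106 of 14017 cells against 221 of 15700 in control. Classical monocyte-like cells were 85 in Ang II against 180 in control. The part of these cell numbers in the ratio was not tested.

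Among the ligands of these receptors (16 on the list, 2 with enough UMIs in B-like cells), Cxcl10, a ligand of CXCR3, was 4.51 CPM in B6.SLE123 B-like cells against 0.149 CPM in control, a log2 ratio of 4.92 from 134 and 4 UMIs. Cxcl2, a ligand of CXCR2, was 198 CPM in B6.SLE123, 144 CPM in Ang II and 48.2 CPM in control neutrophil-like cells. Of 13 other chemokine receptors, 4 could be compared in B-like cells of B6.SLE123 and 2 were called, where 6.96% of all genes were, Ccr1 with a ratio of 1.57 (12.8 against 4.32 CPM) and Ackr4 with 2.20 (1.88 against 0.409 CPM). With Ang II 0 of 3 were called, where 1.52% of all genes were. Of 22 genes of receptor signalling and desensitisation, 2 were called in B6.SLE123 B-like cells, a share near the 6.96% of all genes. These were Rgs1 with a ratio of 2.82 (7.91 against 1.12 CPM) and Rgs10 with 1.05 (58.2 against 28.1 CPM). With Ang II 0 of 22 were called. The median log2 ratio of the 22 was -0.13 in B6.SLE123 and 0.15 in Ang II. Of the 10 stress and immediate early genes, 4 (Fos, Fosb, Jun and Dusp1) were called higher in B6.SLE123 B-like cells and 2 (Hspa1a and Hspa1b) in Ang II, beside 6.96% and 1.52% of all genes called in either direction, and their summed level was 396 CPM in control, 571 CPM with Ang II and 608 CPM in B6.SLE123. The part of handling in the receptor levels was not tested.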

How the data were processed

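The authors deposited raw UMI counts of genes and hashtags in every barcode, from Cell Ranger 6.0.0 (per the file headers), with mm10 named in the submitters' processing notes. Kept cells had more than 200 but fewer than 3500 genes and less than 15% mitochondrial UMIs. Barcodes with several hashtags (11.4 to 18.0%) were discarded as doublets, which leaves doublets of a single hashtag in place. A B-like cell had 3 or more of 6 B markers. Plasma-like cells had 4 or more of 7 plasma markers, and the other classes and B subclasses were gated on 2 or 3 of their markers. Atypical B-like cells also needed a UMI of Tbx21 or Itgax. Classes other than B-like and plasma-like cells were allowed at most 1 B marker. UMIs were summed per class and library, and ratios carry exact conditional intervals (scipy 1.17.1), shares Clopper-Pearson intervals and levels Poisson intervals. The ratio function was tested on simulated data. Leiden clusters used scanpy 1.11.5, and TMM factors edgeR 4.0.16. Alternatives were the cell limits, doublet removal, clusters, scaling, thinning, the UMI minimum and leaving out each hashtag. The named genes are all 10 receptors and, from the lists, those called. The members and lists were chosen with earlier results of these data known. Positions are GENCODE vM21 on GRCm38, and promoters are RefSeq's on GRCm38.p6. The level of 1 germinal centre marker is not reported here.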

Additional observations from a re-analysis of the deposited data

Results flagged for a closer look

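Of 22 groups of 5 or 6 hashtags (a receptor in its class and library), 3 held a hashtag set apart from the others by Dixon's criterion, which chance meets in about 1 of 20 groups. Cxcr3 in control B-like cells was 4.72 CPM in C0302, where the next was 1.68 CPM. Cxcr3 in B6.SLE123 B-like cells was 43.7 CPM in C0303, where the next was 13.7 CPM. Ccr6 in the same cells of C0303 was 153 CPM, where the next was 83.6 CPM. The hashtags of 1 library were not assigned to conditions.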

How the results depend on the processing

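No paired analysis was possible because each group had 1 library. In B6.SLE123 against control 1 receptor was called (Cxcr3). It was 2, with Ackr3 added, when the cell limits were read as UMIs, against control hashtags C0304 to C0306 alone (Ackr3 lower) and against C0301 to C0303 alone (Ackr3 higher), and 1 in every setting that left out 1 hashtag. In Ang II against control 0 were called. It was 0 to 1 when each hashtag was left out, with Ccr9 called without control C0302 (log2 ratio 1.14), and 1 against control hashtags C0301 to C0303 alone (Ackr3, 1.74). Both control settings were chosen after seeing the data. The cause of these changes was not tested. The ratios called over all hashtags kept their sign in every setting run. Ackr3, which was not called there, changed sign between the control settings, and other uncalled ratios changed sign too (among them Cxcr5 in B6.SLE123 to 0.01 with thinned cells, Cx3cr1 with Ang II to 0.28 with limits read as UMIs). Of 27 ratios, those that moved by more than their interval were 0 with barcodes of several hashtags kept, 0 with TMM scaling, 1 with Leiden clusters and 6 with thinned cells, and 11 of 24 moved with limits read as UMIs. Leaving out each hashtag in turn, the log2 ratio of Cxcr3 in B6.SLE123 B-like cells was 2.52 to 4.05, of Ccr6 0.17 to 0.50, of Ackr3 -0.82 to 0.31 (0.31 without control C0305) and of Ccr9 with Ang II 0.55 to 1.14. Depth limits Ackr3, Ccr9 and Cxcr3 outside B6.SLE123, which rest on under 120 UMIs in their main class.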
